A study of Mus musculus with 6 samples.

Results

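Immature migrating neuron genes are genes switched on as a cell leaves the cycle and becomes a young neuron, and turned down again as that neuron settles and matures. The 10 examined here were Dcx, Sox4, Sox11, Igfbpl1, Nhlh1, Nhlh2, Draxin, Cd24a, Stmn1 and Rnd2. They were chosen by name, with earlier results of these data known. All 10 were found among the 55367 genes of the count table, and all 10 had enough counts to be tested. Libraries for RNA-seq came from cortical neurons of C57BL/6J pups, either WT or Fmr1-KO, dissected at postnatal day 1 (P1) and then grown for 2 days in vitro, with 3 libraries per genotype. Fmr1-KO animals are without FMRP, an RNA-binding protein lost in fragile X syndrome, in every cell type, so effects arising before and during culture cannot be told apart. According to the study's methods, ACSA2+ astrocytes and myelin were depleted before plating. The labels name neither the litter nor the sex of the pups, and P values then measure only the spread between these libraries.

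In the developing cortex, radial glia and intermediate progenitors give rise to neurons that migrate along radial fibres into the cortical plate, while interneurons arrive tangentially from the ventral forebrain. During this journey the cell relies on transcription factors of the SoxC and bHLH families, on proteins that remodel microtubules and actin in the leading process, and on surface and secreted proteins that guide the growing axon. Once in place, the neuron replaces this programme with synaptic and neurofilament genes. The genes described here are therefore used as marks of a young neuron, but they are not confined to it, as given below for Cd24a and Nhlh2. The share of progenitor RNA in their levels was not tested.

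Library totals ran from 30348556 to 35126207 counts. Fmr1 itself was lower in all 3 Fmr1-KO libraries, with a mean at 50.6% of WT and a log2 fold-change of -0.98 (SE 0.04). Neuronal Tubb3 was among the most abundant mRNAs per kilobase of exon, at position 20 of the 16740 tested genes with a known length, but so was the astrocyte gene Gfap at position 18. The cultures held glial as well as neuronal RNA. In bulk RNA of this kind, fewer cells of a type and less RNA per cell cannot be told apart.

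Of the 10 genes, 7 were higher and 2 were lower in Fmr1-KO relative to WT, and Stmn1 did not pass the threshold. A gene was called where edgeR's quasi-likelihood P, after Benjamini-Hochberg adjustment over 16976 genes, was under 0.05. Among all tested genes 42.6% were called, 20.7% as higher and 21.9% as lower. The libraries of the genotypes did not overlap for those 7 higher and 2 lower genes, which was so for 51.7% of all tested genes, 25.4% higher and 26.3% lower. DESeq2 called 7 of the 10 higher and 1 lower, against 16.5% and 19.7% of all genes it tested (36.2% in either direction). Scaling by library totals alone gave 8 higher and 2 lower, against 24.8% and 18.9% (43.7% in either direction). The median log2 fold-change was 0.28 for the 10 genes and 0.0060 for all tested genes. The largest rises were those of Nhlh1 and Igfbpl1, followed by Sox11, Draxin, Cd24a and Sox4, while Dcx rose little. Nhlh2 and Rnd2 fell. With a fold change above 1.2 required, 5 of the 10 were called higher and 0 lower, against 5.2% and 7.89% of all tested genes (13.1% in either direction). Those 5 were Nhlh1, Igfbpl1, Sox11, Draxin and Cd24a. That test was edgeR's glmTreat, and with no minimum fold 2 of the 10 were lower at an unadjusted P under 0.05.

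**Figure D1:**
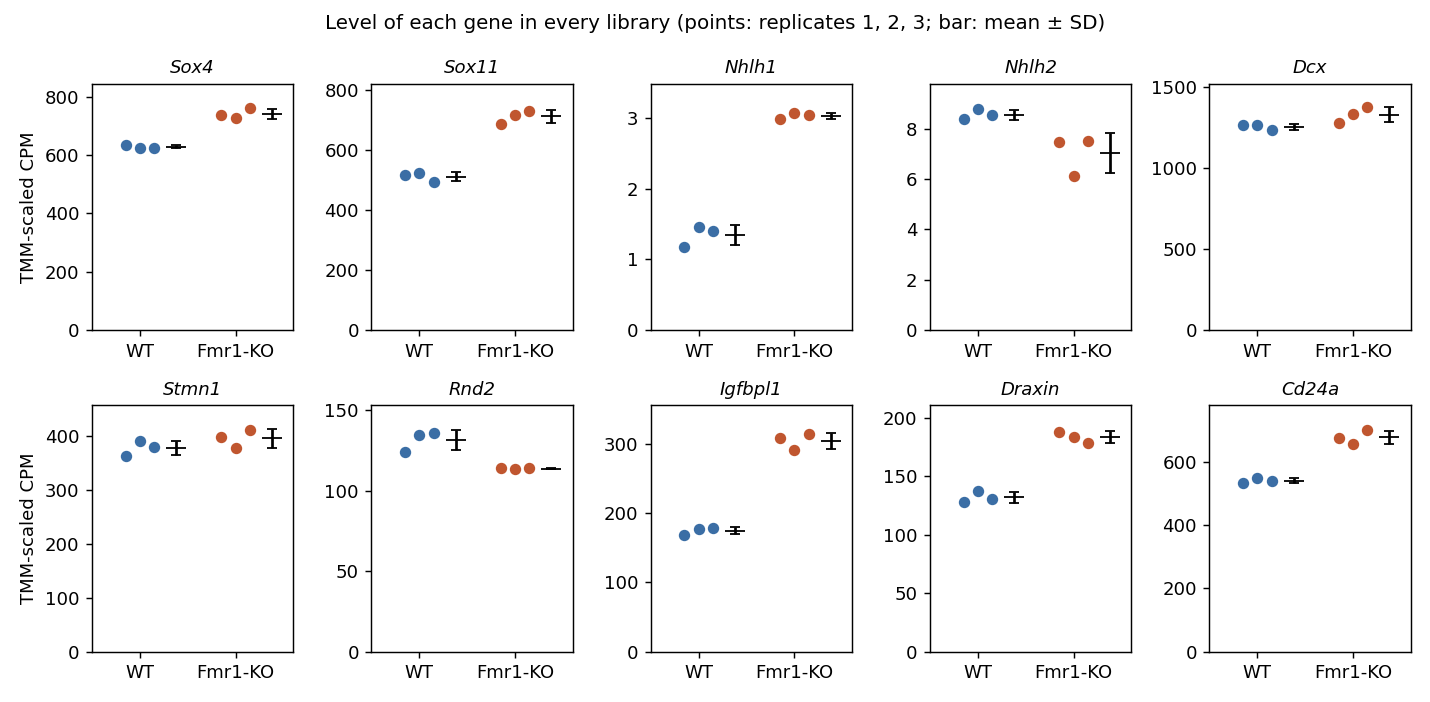
CPM, counts scaled to library size with TMM factors, of each of the 10 genes in the 3 WT (blue) and 3 Fmr1-KO (orange) libraries, with the mean and SD as a black bar and each vertical axis starting at 0. The genotypes did not overlap except in Stmn1; Nhlh2 and Rnd2 were the genes whose Fmr1-KO libraries lay below WT.

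Together the 10 genes held between 0.369% and 0.377% of all counts in the WT libraries and between 0.444% and 0.463% in the Fmr1-KO libraries. Levels of different genes were compared as CPM per kilobase of annotated exon. On that scale Cd24a was the most abundant in WT, at 209.3 ± 2.86 CPM per kb (SD, n = 3), followed by Stmn1 (196.2 ± 6.99), Sox4 (131.3 ± 1.25) and Dcx (99.0 ± 1.42). The length was that of all annotated exons merged: 2580 bases for Cd24a, 1922 for Stmn1, 4795 for Sox4 and 12647 for Dcx. Their longest transcripts have 1816, 1060, 4795 and 9074 bases. The order of Cd24a and Stmn1, and that of Sox4 and Dcx, therefore depends on the length used. Rnd2, Sox11 and Igfbpl1 formed a middle group at 66.1, 61.5 and 53.8 CPM per kb, in which the WT libraries of Rnd2 and Sox11 overlapped. Merged exons of Rnd2 and Igfbpl1 span 1990 and 3250 bases and their longest transcripts 1578 and 2864, whereas both are 8311 for Sox11. Which WT libraries overlapped in this group therefore also depends on the length used. Draxin stood at 25.4 CPM per kb, and Nhlh2 and Nhlh1 were scarce, at 1.58 and 0.547 CPM per kb.

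The order of these levels differed between genotypes in the middle group. In Fmr1-KO, Igfbpl1 came above Sox11 and Rnd2, at 93.8 ± 3.48 CPM per kb (SD, n = 3) with Sox11 at 85.7 ± 2.72 and Rnd2 at 57.2 ± 0.165, and the libraries of these neighbours did not overlap. At the bottom of the order, Nhlh2 (1.30 ± 0.147 CPM per kb) and Nhlh1 (1.23 ± 0.0184) overlapped in Fmr1-KO, whereas in WT every library had more Nhlh2 than Nhlh1 per kilobase. That overlap depends on the length used. Merged exons of Nhlh2 span 5417 bases and its longest transcript 3943, whereas both are 2464 bases for Nhlh1. The spread within a genotype was small: the median coefficient of variation of the 10 genes was 3.04% in WT and 3.13% in Fmr1-KO. It was widest for Nhlh1 in WT (10.9%) and Nhlh2 in Fmr1-KO (11.3%), the genes with the fewest counts.

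Sox4 and Sox11 encode SoxC proteins, HMG-box transcription factors that switch on neuronal genes in cells leaving the progenitor state. Both are single-exon genes on the minus strand in GRCm38, Sox4 on chromosome 13 from 28948919 to 28953713 and Sox11 on chromosome 12 from 27334264 to 27342574. Sox4 had 636.3, 625.6 and 626.2 CPM in WT replicates 1, 2 and 3 and 736.7, 727.6 and 762.1 CPM in the Fmr1-KO replicates. Every Fmr1-KO library lay above every WT library. edgeR gave a log2 fold-change of 0.24, with SE 0.03 and adjusted P 5.99e-07.

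Sox11 had 517.4, 522.8 and 493.2 CPM in WT and 687.6, 717.7 and 731.9 CPM in Fmr1-KO. The genotypes were again separate, and the mean was 39.4% higher in Fmr1-KO, against 17.9% for Sox4. The log2 fold-change of Sox11 was 0.48 (SE 0.03; adjusted P 9.23e-11 by edgeR). Since Sox11 rose more than Sox4, the ratio of Sox4 to Sox11 counts within a library, which does not depend on how libraries are scaled, was lower in all 3 Fmr1-KO libraries. Its log2 was 0.30, 0.26 and 0.34 in WT and 0.10, 0.02 and 0.06 in Fmr1-KO, a difference of -0.24. A 2-sided exact permutation test over libraries gave P = 0.1, the smallest that 3 against 3 libraries allow, so the test cannot reach 0.05. Sox12, the remaining SoxC gene, did not pass the threshold (log2 fold-change -0.07, 95% interval from -0.14 to 0.0055, adjusted P 0.131 by edgeR), and it was -0.04 without Fmr1-KO replicate 2 (adjusted P 0.430).

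Nhlh1 and Nhlh2 encode closely related bHLH transcription factors that appear in newly formed neurons, and they moved in opposite directions. Nhlh1 lies on chromosome 1 from 172052292 to 172057573 (minus strand) and Nhlh2 on chromosome 3 from 102010076 to 102015492 (plus strand). For Nhlh1, 41, 48 and 47 counts were found in WT and 97, 94 and 106 in Fmr1-KO. In CPM these were 1.18, 1.45 and 1.41 against 2.98, 3.07 and 3.05. The Fmr1-KO mean was 225% of the WT mean, with no overlap, and edgeR gave a log2 fold-change of 1.17, with SE 0.15 and adjusted P 1.82e-06. From the top of all tested genes ordered by log2 fold-change, Nhlh1 was at position 72 and Igfbpl1 at position 265.

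Nhlh2 had 291, 290 and 285 counts in WT and 243, 187 and 261 counts in Fmr1-KO, or 8.37, 8.77 and 8.54 CPM against 7.47, 6.11 and 7.502 CPM. All Fmr1-KO libraries lay below WT, replicate 2 by the widest margin. edgeR gave a log2 fold-change of -0.28, with SE 0.09 and adjusted P 0.0171. This call was lost under DESeq2 (adjusted P 0.0572) and without Fmr1-KO replicate 2, where edgeR gave -0.19 (adjusted P 0.10). Within a library, Nhlh1 counts were 0.141, 0.166 and 0.165 of Nhlh2 counts in WT and 0.399, 0.503 and 0.406 in Fmr1-KO. The difference in this ratio was 1.46 on the log2 scale (2-sided exact permutation test, P = 0.1, the smallest possible here).

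**Figure D2:**
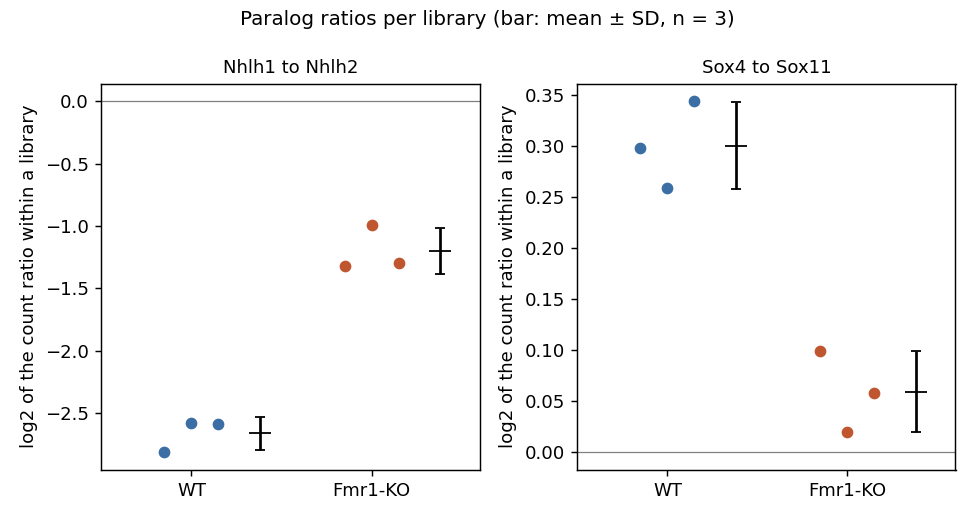
Log2 of the count ratio within each library for Nhlh1 to Nhlh2 (left) and Sox4 to Sox11 (right), by genotype, with the mean and SD as a black bar (n = 3). The 3 Fmr1-KO libraries lie above WT for the first pair, by 1.46 on average, and below WT for the second, by -0.24; the vertical axes differ in range and do not start at 0.

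Because these paralog pairs did not move alike, their promoters are shown, from 250 bases before to 50 bases after the RefSeq start (GRCm38.p6), 5′ to 3′ on the gene's strand. Capitals mark CAGCTG, an E-box of the kind that bHLH proteins bind. The windows are chr1:172057547-172057846 (minus) for Nhlh1, chr3:102009895-102010194 (plus) for Nhlh2, chr13:28953650-28953949 (minus) for Sox4 and chr12:27342669-27342968 (minus) for Sox11.
Nhlh1: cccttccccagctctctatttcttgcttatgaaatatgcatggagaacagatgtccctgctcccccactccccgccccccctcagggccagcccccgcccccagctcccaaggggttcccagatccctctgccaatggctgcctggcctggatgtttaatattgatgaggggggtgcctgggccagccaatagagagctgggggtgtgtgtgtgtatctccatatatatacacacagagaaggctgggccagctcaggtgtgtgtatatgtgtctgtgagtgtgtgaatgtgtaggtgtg
Nhlh2: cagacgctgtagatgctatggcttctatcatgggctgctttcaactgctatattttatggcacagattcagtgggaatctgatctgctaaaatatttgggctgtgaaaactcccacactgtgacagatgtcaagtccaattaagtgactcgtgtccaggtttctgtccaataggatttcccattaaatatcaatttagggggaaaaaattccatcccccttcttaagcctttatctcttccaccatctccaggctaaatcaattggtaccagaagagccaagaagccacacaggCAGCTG
Sox4: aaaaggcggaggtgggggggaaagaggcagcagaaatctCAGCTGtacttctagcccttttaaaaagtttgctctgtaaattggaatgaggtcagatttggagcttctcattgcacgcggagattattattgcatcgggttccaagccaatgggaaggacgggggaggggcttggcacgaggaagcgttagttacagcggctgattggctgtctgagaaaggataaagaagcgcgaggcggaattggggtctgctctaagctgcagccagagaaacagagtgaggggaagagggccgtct
Sox11: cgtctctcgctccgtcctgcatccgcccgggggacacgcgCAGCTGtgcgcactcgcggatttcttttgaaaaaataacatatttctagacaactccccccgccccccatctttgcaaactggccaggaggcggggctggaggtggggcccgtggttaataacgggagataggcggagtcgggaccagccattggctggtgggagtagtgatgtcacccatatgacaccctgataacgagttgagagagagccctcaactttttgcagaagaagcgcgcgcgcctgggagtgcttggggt

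CAGCTG reads the same on both strands and was found in 16.3% of the 32851 RefSeq promoter windows of this length. Sox4 and Sox11 each held 1 copy, at positions -211 and -210 from the start, and Nhlh2 held 1 copy at position 44. The Nhlh1 window held no CAGCTG, and both Nhlh windows held 1 copy of CAGATG or its complement CATCTG, which occurs in 17.2% of windows. Other forms of the E-box were not counted, so these windows cannot be compared for E-boxes as a class. RefSeq promoters were matched for 6 of the 10 genes. Of the others so matched, Draxin had 1 CAGCTG at position -132 and 2 copies of ACAAAG or CTTTGT, the letters of a SOX-type motif (18.7% of windows). Dcx had TATAAA or TTTATA (13.6% of windows), and its second RefSeq start also had ACAAAG. A match describes the letters in the window and does not show that a factor binds there.

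Dcx encodes doublecortin, a protein that stabilises microtubules in the leading process and is the standard mark of a migrating young neuron. It lies on chromosome X from 143855842 to 143933311 (minus strand) and was the member with the most counts, from 40647 to 47723 in a library. Its levels were 1263, 1263 and 1232 CPM in WT and 1277, 1328 and 1372 CPM in Fmr1-KO. The genotypes did not overlap, but the lowest Fmr1-KO library lay close to the highest WT libraries. The mean was 5.83% higher in Fmr1-KO, a log2 fold-change of 0.08 (SE 0.03; adjusted P 0.0312 by edgeR). The call was lost without WT replicate 1 (adjusted P 0.0643), without WT replicate 3 (0.133) and without Fmr1-KO replicate 3 (0.168), where the log2 fold-change was 0.06.

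Since Dcx is X-linked, sex-linked genes are given beside it. Xist, the RNA that silences one X chromosome in females, went up from 305.5 ± 7.34 CPM in WT to 915.7 ± 96.4 in Fmr1-KO (SD, n = 3 each). Of the Y-linked genes, Ddx3y, Eif2s3y and Kdm5d fell, with log2 fold-changes of -0.28, -0.47 and -0.15 (adjusted P by edgeR 0.000203, 9.45e-07 and 0.0250), and Uty did not pass the threshold (-0.20, adjusted P 0.0679). The Kdm5d call was lost under DESeq2, on scaling by library totals, and on dropping replicate 1 or 3 of either genotype (adjusted P from 0.0531 to 0.0912), and Uty was called lower without WT replicate 3 (-0.25, adjusted P 0.0396 by edgeR) or Fmr1-KO replicate 2 (-0.30, adjusted P 0.00884). These values moved with genotype, and their part in the Dcx result was not tested. Of the 557 tested genes on chromosome X, 139 were higher and 134 lower, with a median log2 fold-change of 0.0095. In either direction 49.0% of them were called, against 42.6% of all tested genes.

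Stmn1 encodes stathmin, which binds tubulin dimers and promotes the disassembly of microtubules. It lies on chromosome 4 from 134468320 to 134473843. It had 362.9, 389.6 and 378.9 CPM in WT and 397.1, 377.0 and 411.3 CPM in Fmr1-KO. The genotypes overlapped, since Fmr1-KO replicate 2 lay below 2 of the WT libraries. The log2 fold-change was 0.07, with a 95% interval from -0.0040 to 0.14 (adjusted P 0.122 by edgeR). It passed with library totals alone (0.10, adjusted P 0.0290) and without Fmr1-KO replicate 2 (0.10, adjusted P 0.0195), whereas the log2 fold-change was 0.04 without WT replicate 1 (adjusted P 0.455) or Fmr1-KO replicate 3 (adjusted P 0.465).

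Rnd2 encodes a small GTPase, known as a target of the proneural factor Neurog2 and as a requirement for radial migration. It lies on chromosome 11 from 101464999 to 101471853. Its levels were 124.2, 134.6 and 135.9 CPM in WT and 114.1, 113.5 and 113.9 CPM in Fmr1-KO. The Fmr1-KO libraries were nearly identical to each other and lay below all WT libraries. The mean fell by 13.5%, with a log2 fold-change of -0.21 (SE 0.04; adjusted P 7.39e-05 by edgeR).

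Igfbpl1 encodes a secreted protein related to the insulin-like growth factor binding proteins and is found in newborn neurons. It lies on chromosome 4 from 45809468 to 45826923. It had 168.8, 177.6 and 178.2 CPM in WT and 308.4, 292.0 and 313.7 CPM in Fmr1-KO. The gap between genotypes was many times the spread within either. The mean rose by 74.3%, a log2 fold-change of 0.80 (SE 0.03; adjusted P 1.09e-13 by edgeR).

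Draxin encodes a secreted axon guidance protein that binds the receptor Dcc and netrin-1. It lies on chromosome 4 from 148098437 to 148130698. It had 127.8, 137.3 and 130.7 CPM in WT and 188.3, 183.8 and 178.5 CPM in Fmr1-KO. The groups were separate, and the mean was 39.1% higher in Fmr1-KO (log2 fold-change 0.48, SE 0.03; adjusted P 3.58e-10 by edgeR). Its receptor gene Dcc also rose, with 91.2 ± 3.36 CPM in WT and 138.9 ± 6.68 in Fmr1-KO (SD, n = 3 each; log2 fold-change 0.61, SE 0.04; adjusted P 5.99e-11 by edgeR).

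Cd24a encodes a small surface glycoprotein anchored in the membrane by a lipid, present on young neurons and neuroblasts and also on ependymal and red blood cell precursors. It lies on chromosome 10 from 43578284 to 43584265. It had 533.4, 548.0 and 538.5 CPM in WT and 673.8, 657.5 and 699.1 CPM in Fmr1-KO. No library of one genotype fell within the range of the other. edgeR gave a log2 fold-change of 0.33, with SE 0.03 and adjusted P 1.13e-08. Of the 5 ependymal and choroid plexus markers, 3 were called higher and 0 lower by edgeR, with 0 lower also at an unadjusted P under 0.05 and by DESeq2, and 2 were not called. Among all tested genes edgeR called 20.7% higher and 21.9% lower. The summed level of the 5 markers ran from 1115 to 1173 CPM in WT and from 1554 to 1855 CPM in Fmr1-KO. Ttr alone made up most of this sum, with a mean of 995.5 CPM in WT and 1536 in Fmr1-KO. None of these markers was at 0 counts. Erythroid markers stood near 0, with a summed level of at most 2.46 CPM in any library. The part of ependymal and choroid plexus RNA in the Cd24a result was not tested.

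**Figure D3:**
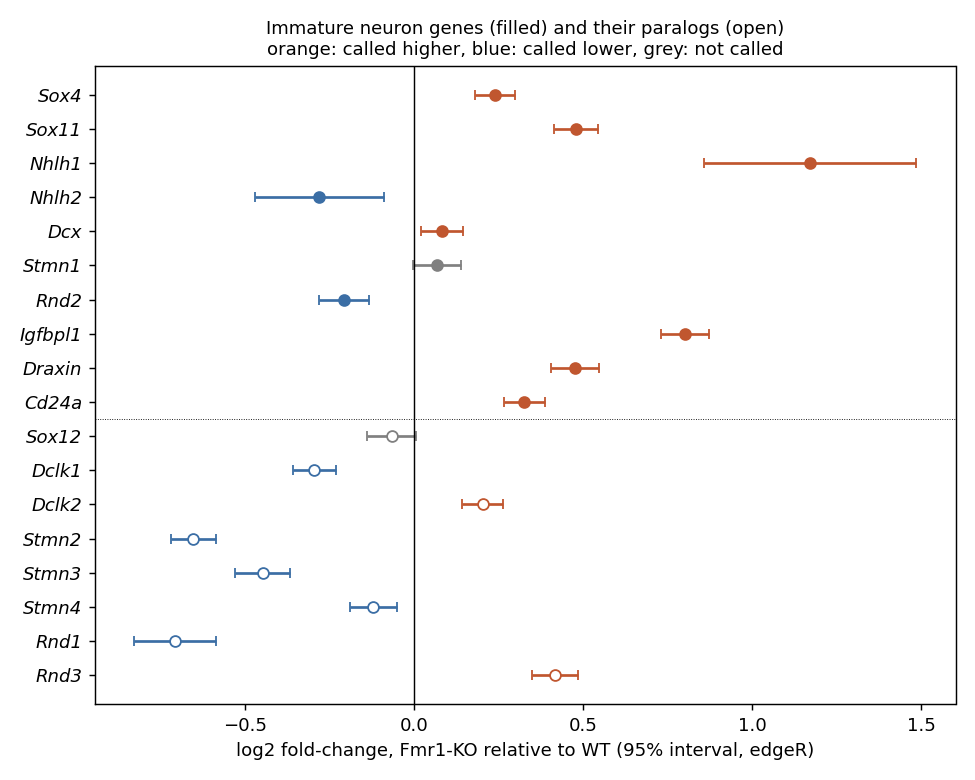
Log2 fold-change of the 10 genes (filled circles) and 8 of their paralogs (open circles) in Fmr1-KO relative to WT, with 95% intervals from edgeR; orange marks genes called higher, blue genes called lower and grey genes not called. Nhlh1 (1.17) and Igfbpl1 (0.80) stand farthest to the right, and Rnd1 (-0.71) and Stmn2 (-0.65) farthest to the left.

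The paralogs of these genes, several of which are used by neurons at later stages, had mostly lower levels. Of 8 paralogs, 2 were called higher and 5 lower, against 20.7% and 21.9% of all tested genes, with a median log2 fold-change of -0.21. Stmn2, a stathmin of growing axons, went down from 590.6 ± 0.816 CPM in WT to 375.4 ± 17.1 in Fmr1-KO (SD, n = 3 each; log2 fold-change -0.65, SE 0.03; adjusted P 9.64e-13 by edgeR). Stmn3 and Stmn4 fell as well, with log2 fold-changes of -0.45 and -0.12, beside the 0.07 of Stmn1. Among doublecortin-like kinases, Dclk1 fell (-0.30) and Dclk2 rose (0.20). In the Rnd family, Rnd3 rose from 146.8 ± 5.23 to 196.1 ± 2.78 CPM (0.42), whereas Rnd1 fell from 24.5 ± 0.296 to 15.01 ± 0.672 CPM (-0.71) and Rnd2 fell by 0.21 on the log2 scale. With a fold change above 1.2 required, 1 paralog was called higher and 3 lower, against 5.2% and 7.89% of all tested genes.

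Transcription factors that act before or around the birth of the neuron were mostly higher. Of 12 such genes, Neurog1 was under the expression filter, and of the 11 tested 9 were called higher and 0 lower by edgeR, with 0 lower also at an unadjusted P under 0.05 and by DESeq2. Among all tested genes edgeR called 20.7% higher and 21.9% lower, and DESeq2 16.5% and 19.7%. Eomes, the mark of intermediate progenitors, rose from 10.5 ± 2.25 CPM in WT to 72.8 ± 7.88 in Fmr1-KO (SD, n = 3 each). Neurog2, the proneural factor known to act on Rnd2, rose from 1.66 ± 0.435 to 8.49 ± 1.73 CPM, a log2 fold-change of 2.34 (SE 0.17; adjusted P 3.52e-10 by edgeR). Neurod4 rose by 1.77 on the log2 scale from 0.513 ± 0.0794 CPM. The median log2 fold-change of the 11 was 0.22, below the 0.28 of the immature neuron genes. With a fold change above 1.2 required, 4 of the 11 were called higher and 0 lower, against 5.2% and 7.89% of all tested genes.

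The machinery of migration did not move in 1 direction. Of 20 genes for migration machinery and guidance partners, tubulins and reelin signalling among them, 9 were called higher and 9 lower. Among all tested genes the shares were 20.7% and 21.9%. The median log2 fold-change of the 20 was -0.02. DESeq2 called 9 higher and 8 lower, and dropping one library left 9 higher and from 7 to 9 lower. With a fold change above 1.2 required 3 were higher and 1 was lower, against 5.2% and 7.89% of all tested genes. Cntn2, an adhesion protein of growing axons, Dcc and the chemokine receptor gene Cxcr4 had the largest rises, at 0.65, 0.61 and 0.44. Reln, which encodes the stop signal reelin, fell by 1.70 on the log2 scale (SE 0.08; adjusted P 2.81e-13 by edgeR). The neuronal tubulin gene Tubb3 and the reelin receptor gene Vldlr fell by 0.28 each.

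Genes of maturing neurons stood opposite to most of the immature ones. Of 16, 15 were called lower and 0 higher by edgeR, with 0 higher also at an unadjusted P under 0.05 and by DESeq2, and their median log2 fold-change was -0.82. Among all tested genes edgeR called 21.9% lower and 20.7% higher. The list was chosen with earlier results of these data known, so its count is not independent evidence. The largest falls were those of Ddn, Nrgn and Slc17a7, at -3.17, -2.72 and -2.45. The summed level of this list ran from 2416 to 2517 CPM in WT and from 1818 to 1864 CPM in Fmr1-KO, while that of the 10 immature neuron genes ran from 3723 to 3809 CPM in WT and from 4394 to 4593 CPM in Fmr1-KO. Both sums were separate between genotypes, in opposite directions.

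**Figure D4:**
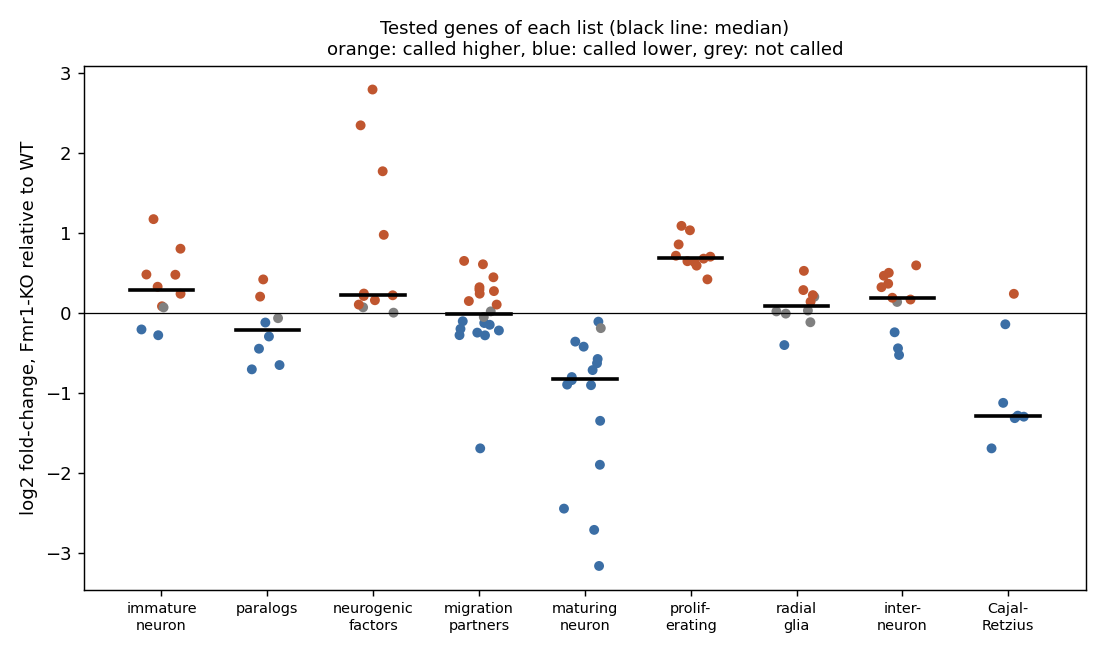
Log2 fold-change of each tested gene in 9 lists, in Fmr1-KO relative to WT, with the list's median as a black line; orange marks genes called higher, blue genes called lower and grey genes not called. The immature neuron genes lie between -0.28 and 1.17, the maturing neuron genes entirely below 0, and the proliferating cell markers entirely above 0.

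Markers of the cells that surround young neurons also moved with genotype. Beside the counts below, 20.7% of all tested genes were called higher and 21.9% lower. All 10 proliferating cell markers were called higher, led by Mki67, Cenpf and Top2a at log2 fold-changes of 1.09, 1.03 and 0.86, and their summed level ran from 552.7 to 600.4 CPM in WT and from 954.7 to 1034 CPM in Fmr1-KO. Of 10 radial glia markers, 4 were higher, with Pax6, Nes and Vim at 0.52, 0.28 and 0.22, and Hopx was lower at -0.40, and the sum ran from 3605 to 3667 CPM against 3955 to 4003 CPM. Of 11 interneuron lineage markers, 7 were higher and 3 lower: Dlx2 and Dlx1 rose by 0.59 and 0.46 on the log2 scale, and Slc32a1, Lhx6 and Gad1 had log2 fold-changes of -0.53, -0.44 and -0.24. The interneuron sum ran from 861.0 to 892.3 CPM in WT and from 989.5 to 1097 CPM in Fmr1-KO.

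Nhlh2 is also known from Cajal-Retzius cells, the early reelin-secreting neurons of the cortical surface. Of 7 markers of these cells, 6 were called lower and 1 higher (5 and 0 by DESeq2), against 21.9% and 20.7% of all tested genes (19.7% and 16.5% by DESeq2). Their summed level ran from 240.2 to 270.6 CPM in WT and from 104.7 to 134.6 CPM in Fmr1-KO. Reln alone made up most of the WT sum and of its fall, with a mean of 171.4 CPM in WT and 52.8 in Fmr1-KO. It is also counted among the migration genes above. Reln, Ebf3 and Ndnf had the largest falls, with log2 fold-changes of -1.70, -1.32 and -1.30. Trp73, a defining marker, was the 1 called higher (0.24, adjusted P 0.0371 by edgeR), a call that was lost under DESeq2 and without WT replicate 2, WT replicate 3, Fmr1-KO replicate 2 or Fmr1-KO replicate 3, where log2 fold-changes ran from 0.18 to 0.24. Their part in the Nhlh2 result was not tested.

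Glial and vascular lists were given the same treatment, with the same shares of all tested genes beside them (20.7% higher and 21.9% lower). All 8 oligodendrocyte lineage markers were lower, with sums from 1884 to 2046 CPM in WT and from 1075 to 1159 CPM in Fmr1-KO. Of 7 microglia markers 6 were lower (5 by DESeq2), with sums from 160.2 to 177.5 CPM against 94.0 to 104.8 CPM. Of 6 astrocyte markers 4 were lower and 1 higher, with sums from 3979 to 4110 CPM against 3341 to 3694 CPM. Endothelial and mural cell markers were split, with 2 higher and 2 lower of 5 tested (Cldn5 was not tested) and sums from 75.7 to 84.2 CPM against 92.8 to 98.8 CPM. Both of the erythroid markers tested were lower, though DESeq2 called 0 of them and both passed an unadjusted P under 0.05 in edgeR. The other erythroid markers were under the expression filter. No marker of any of these lists was at 0 in all libraries, and the part of these cells in the results was not tested.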

How the data were processed

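RNA was measured in 6 libraries, 3 WT and 3 Fmr1-KO, grouped by the labels. The table the authors deposited holds unnormalized read counts of each gene. Their methods and processing notes name FastP for trimming, STAR 2.7.6a for alignment (GRCm38.p6) and featureCounts, run by strand over exons and summed by gene name, so isoforms are not separated.

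Totals ran from 30348556 to 35126207 counts, and intervals cover the spread between libraries. edgeR 4.0.16 (R 4.3.3) served for the main test: low genes were removed with filterByExpr, libraries scaled with TMM, and genotype tested alone and 2-sided with glmQLFit and glmQLFTest. CPM are TMM-scaled. SE is the log2 fold-change divided by the square root of F. Paralog ratios used a pseudocount of 0.5. Positions and exon lengths came from GENCODE M21, and 98.6% of tested genes had a length. Stmn1 shares 66 exon bases with Gm23634 on the same strand, and the other members share none. The fits were tested on simulated data.

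Alternatives were DESeq2 1.42.0, RLE and upper-quartile normalization, library totals, filtering none of the genes, filtering more of them (10 counts on average and 5 CPM), a replicate block, a minimum fold of 1.2 and leaving out each library. The members and lists were chosen with earlier results of these data known. Named genes are the members, their paralogs, Fmr1, sex-linked genes, and in other lists at most the 3 largest called changes in each direction; some genes that this rule names are not reported here. Tubb3 and Gfap as culture checks were chosen after their values were seen.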

Additional observations from a re-analysis of the deposited data

How the results depend on the processing

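The number of members called higher was 7 in the reported fit, 5 with a fold change above 1.2 required and 6 with more genes filtered, which leaves out Nhlh1 (25.4% of all genes tested there were higher and 26.0% lower), and it ran from 6 to 8 when any one library was dropped (17.2% to 19.2% of all genes higher, 19.2% to 20.7% lower). The number called lower was 2, and became 1 under DESeq2 and 0 with a fold change above 1.2 required, as a stricter test calls fewer genes; dropping one library gave 1 (Fmr1-KO replicate 2 dropped) or 2 (any other). For DESeq2 the cause was not tested. Replicate numbers did not pair the libraries: correlations of same-numbered deviations were -0.029, 0.032 and -0.015. With a replicate block 7 members were higher and 2 lower, and the difference in the Nhlh1 to Nhlh2 ratio was 1.46 (exact sign-flip permutation, P = 0.25, the smallest 3 pairs allow). Scaling moved the median log2 fold-change of all genes by at most 0.028, with library totals alone. Fmr1 ran from -1.03 to -0.94, the Nhlh1 to Nhlh2 difference from 1.35 to 1.52 and the Sox4 to Sox11 difference from -0.26 to -0.22 in the fits without one library. Among 753 values recomputed for 54 single genes other than Fmr1, 718 stayed on the same side of the threshold with the same sign, 31 kept the direction but were no longer called, 4 became called and 0 changed sign. Depth limits Nhlh1, with 41 to 106 counts in a library.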
